A study of Mus musculus with 23 samples.

Results

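St3gal4 encodes a sialyltransferase of the Golgi apparatus, and its transcript was followed in 23 RNA sequencing libraries from whole mouse jejunum. The gene is 1 of 55487 in the count table and 1 of the 17236 that passed the filter on low counts. It was chosen by its measured level, which was high in Cpa3Cre/+ mice on challenge day 5, so every contrast with that group is described and not tested. Cpa3Cre/+ mice carry Cre recombinase at a Cpa3 allele, the gene of mast cell carboxypeptidase, and the labels describe them as mast cell-deficient. Cpa3+/+ mice are their wild-type counterparts. The age of the mice was not given in the sources used here.

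Naive mice were untreated. All other mice received intraperitoneal injections of 25 µg ovalbumin with 2 mg alum on days 0 and 14. Immunized mice were taken with no further treatment, and challenged mice were offered water beside water with 20% egg white and 8% sugar. The bottles stood on day 20 for challenge day 1, on days 20 to 22 for day 3 and on days 20 to 24 for day 5. Cpa3Cre/+ libraries numbered 2 naive, 2 immunized, 2 on day 1, 2 on day 3 and 3 on day 5. Cpa3+/+ libraries numbered 3 naive, 2 immunized, 3 on day 1, 2 on day 3 and 2 on day 5. The day 5 libraries of both genotypes were from females. Among Cpa3Cre/+ libraries, each group before day 5 held a male, and so did the Cpa3+/+ naive group; all others were female. Total counts ran from 5476308 to 19342046 per library. Levels are given as CPM, read counts scaled to a common library size, and are comparable between libraries. RPKM also divides by the length of a gene's exons and is used where genes are compared with each other. Cpa3 itself had 0.10 to 1.51 CPM (median 0.70) in the 11 Cpa3Cre/+ libraries and 0.83 to 22.1 CPM (median 4.04) in the 12 Cpa3+/+ libraries, and the ranges overlapped. Cpa3Cre/+ naive replicate 1 and Cpa3Cre/+ day 5 replicate 3 stood apart from the other libraries, at the ends of the first principal component, which carried 24.5% of the variance. Single genes are therefore described per library on Cpa3Cre/+ day 5, other than list members given by a fitted fold change, and list medians are given with and without replicate 3. In whole tissue, more cells of a type and more RNA per cell cannot be told apart.

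Sialyltransferases take an activated sialic acid and add it to the ends of glycan chains on proteins and lipids. The ST3Gal enzymes place it on terminal galactose. ST3Gal4 acts mainly on N-acetyllactosamine ends and is known in leukocytes for its part in making selectin ligands. In the gut, sialic acid at the ends of glycan chains is part of mucins and of the epithelial surface coat, and it is a binding site and a food source for microbes. ST3Gal6 has an overlapping range of acceptors.

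St3gal4 (ENSMUSG00000032038) lies on the minus strand of chromosome 9 at positions 35046576 to 35119268 of GRCm38, with 2923 bases of exon. RefSeq places a start of the gene inside this span, and the promoter window from 250 bases before to 50 bases after that start is chr9:35116815-35117114, minus strand. The windows of AA467197 (chr2:122637637-122637936, plus strand) and Sprr2a3 (chr3:92285054-92285353, plus strand) are shown beside it because these genes shared the day 5 pattern of St3gal4 and also followed it over the other libraries. All 3 are RefSeq windows on GRCm38.p6, written in the direction of the gene. Capitals mark matches to 4 sets of letters searched on both strands: the GC box GGGCGG, the STAT6 letters TTCNNNNGAA, the general STAT letters TTCNNNGAA and the antioxidant response element letters TGACNNNGC.
St3gal4: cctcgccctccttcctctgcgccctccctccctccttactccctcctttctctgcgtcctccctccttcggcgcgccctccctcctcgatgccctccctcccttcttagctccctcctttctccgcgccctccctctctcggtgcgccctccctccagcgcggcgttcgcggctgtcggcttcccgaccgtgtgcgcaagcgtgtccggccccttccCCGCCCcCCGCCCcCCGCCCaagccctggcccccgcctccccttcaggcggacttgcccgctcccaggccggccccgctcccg
AA467197: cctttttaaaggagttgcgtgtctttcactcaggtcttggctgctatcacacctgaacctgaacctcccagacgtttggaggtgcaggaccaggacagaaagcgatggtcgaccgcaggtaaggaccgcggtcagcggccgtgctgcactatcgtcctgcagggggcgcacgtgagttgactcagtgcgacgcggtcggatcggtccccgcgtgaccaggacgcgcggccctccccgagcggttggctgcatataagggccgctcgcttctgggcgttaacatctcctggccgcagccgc
Sprr2a3: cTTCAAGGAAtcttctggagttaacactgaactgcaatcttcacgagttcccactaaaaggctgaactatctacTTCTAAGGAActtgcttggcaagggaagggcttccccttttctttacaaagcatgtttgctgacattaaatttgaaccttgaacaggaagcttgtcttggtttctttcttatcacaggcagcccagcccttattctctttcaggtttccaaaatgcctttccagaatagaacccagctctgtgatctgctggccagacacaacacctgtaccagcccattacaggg
The St3gal4 window held 3 GC boxes and no match to the other letters, and 74.0% of its bases were G or C, more than in 95.2% of all promoter windows. The AA467197 window was 62.7% G or C and held no match. The Sprr2a3 window was 44.7% G or C and held a STAT6 match and a STAT match, which did not overlap each other. Of 32851 promoter windows of the same length, 35.7% held a GC box, 6.95% the STAT6 letters, 8.30% the STAT letters and 12.4% the antioxidant response element letters. The 3 windows thus had no set of letters in common.

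St3gal4 had 135, 142 and 73.2 CPM in the Cpa3Cre/+ day 5 libraries, against 5.79 and 21.2 CPM in the Cpa3+/+ day 5 libraries. The underlying counts were 1818, 1786 and 778 in Cpa3Cre/+ and 72 and 318 in Cpa3+/+. All 3 Cpa3Cre/+ day 5 libraries lay above all of the other 20, whose levels ran from 4.14 to 32.4 CPM with a median of 14.9 CPM. The lowest of the 3, replicate 3, was 2.26-fold above the highest library of the rest, Cpa3+/+ day 1 replicate 3. Replicate 3 also had the lowest scaling factor of the series (0.767), and on counts over totals the same ratio was 1.84. Group means were 117 ± 37.9 CPM in Cpa3Cre/+ (SD, n = 3) and 13.5 ± 10.9 CPM in Cpa3+/+ (SD, n = 2), a ratio of 8.64, and without replicate 3 the Cpa3Cre/+ mean was 139 CPM. The fitted log2 fold change was 3.10 ± 0.58 (SE) for Cpa3Cre/+ over Cpa3+/+ on day 5, and 3.41 ± 0.61 for Cpa3Cre/+ day 5 over Cpa3Cre/+ immunized. It was 4.30 without Cpa3+/+ day 5 replicate 2 and 2.45 without replicate 1, so the size of the day 5 difference depended on which Cpa3+/+ library was kept. Per length, the level was 40.0 ± 12.96 RPKM in Cpa3Cre/+ and 4.62 ± 3.74 RPKM in Cpa3+/+. By its mean CPM the gene ranked 1785 of 17236 in Cpa3Cre/+ day 5 and 8492 in Cpa3+/+ day 5.

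**Figure D1:**
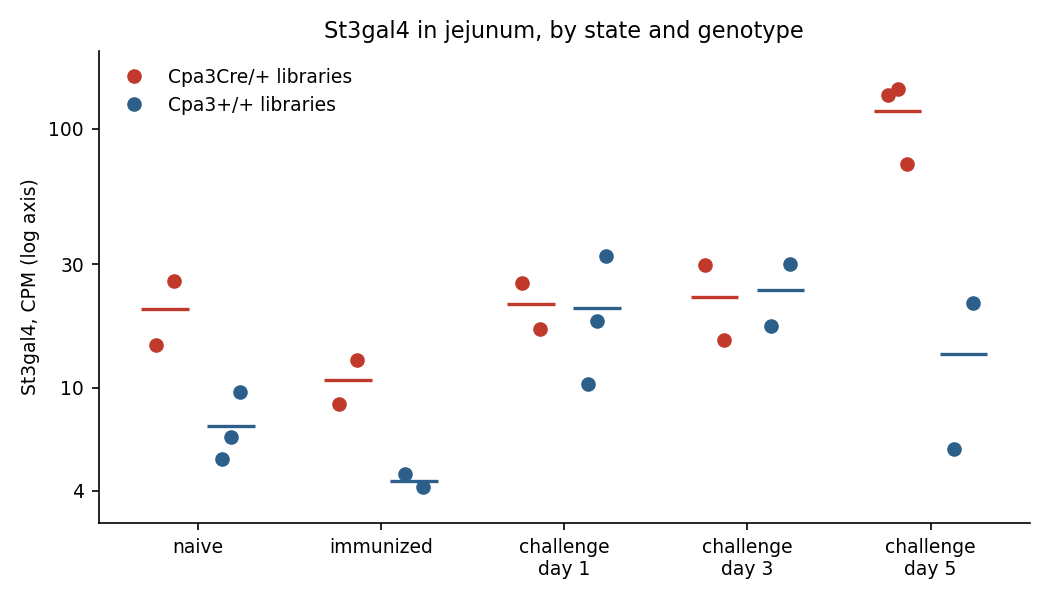
St3gal4 in CPM on a log axis for each of the 23 libraries, by state, with Cpa3Cre/+ in red left of Cpa3+/+ in blue; points are libraries and lines are group means. The 3 Cpa3Cre/+ day 5 libraries, at 73.2 to 142 CPM, sit above the other 20, which span 4.14 to 32.4 CPM.

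Outside that group the level varied 7.83-fold between libraries and did so in both genotypes. In naive jejunum it was 14.6 and 25.8 CPM in Cpa3Cre/+ and 5.29, 6.47 and 9.66 CPM in Cpa3+/+. In immunized jejunum it was 8.66 and 12.8 CPM in Cpa3Cre/+ and 4.63 and 4.14 CPM in Cpa3+/+. In these 2 states every Cpa3Cre/+ library lay above every Cpa3+/+ library, a separation that 7.95% of all genes tested showed in the naive state and 24.9% in the immunized state. On challenge day 1 the libraries had 25.3 and 16.8 CPM in Cpa3Cre/+ and 10.3, 18.1 and 32.4 CPM in Cpa3+/+. On day 3 they had 29.8 and 15.2 CPM in Cpa3Cre/+ and 17.4 and 30.1 CPM in Cpa3+/+. On both of these days the genotypes overlapped.

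Within Cpa3+/+, all 7 challenged libraries lay above both immunized libraries, which 3.09% of genes tested did. Within Cpa3Cre/+, all 4 libraries of days 1 and 3 lay above both immunized libraries, which 13.6% of genes did. The naive libraries also lay above the immunized ones in both genotypes, a pattern shared by 20.9% of genes in Cpa3Cre/+ and 7.29% in Cpa3+/+. Ordered by mean CPM, Cpa3Cre/+ day 5 came first, followed by Cpa3+/+ day 3 (23.7 ± 9.04) and Cpa3Cre/+ day 3 (22.5 ± 10.3). Next came Cpa3Cre/+ day 1 (21.1 ± 6.0), Cpa3+/+ day 1 (20.3 ± 11.2) and Cpa3Cre/+ naive (20.2 ± 7.87). Cpa3+/+ day 5, Cpa3Cre/+ immunized (10.7 ± 2.89), Cpa3+/+ naive (7.14 ± 2.26) and Cpa3+/+ immunized (4.38 ± 0.35) followed (SD, n as above). Neighbours in this order overlapped in their libraries except at its ends, between Cpa3Cre/+ day 5 and Cpa3+/+ day 3 and between Cpa3+/+ naive and Cpa3+/+ immunized.

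Changes in St3gal4 that did not involve the Cpa3Cre/+ day 5 group were tested in 12 contrasts with edgeR's quasi-likelihood test, with p-values adjusted over all 17236 genes. None passed the threshold of 0.05. No gene was called in any of the 12 contrasts (0%), and St3gal4 had an unadjusted p under 0.05 in 6 of them. DESeq2 did not call St3gal4 in any of the 12 either. Its largest contrasts were those of the Cpa3+/+ challenge. Over immunized Cpa3+/+ mice the log2 fold change was 2.21 ± 0.58 on day 1 (edgeR adjusted p = 0.847), 2.43 ± 0.61 on day 3 (edgeR adjusted p = 0.850) and 1.63 ± 0.60 on day 5 (edgeR adjusted p = 0.425). DESeq2 gave adjusted p = 0.055, 0.219 and 0.184 for these and called 0.0522, 0.0116 and 0.806% of all genes. In Cpa3Cre/+ mice it was 0.98 ± 0.57 on day 1 (edgeR adjusted p = 0.991) and 1.06 ± 0.57 on day 3 (edgeR adjusted p = 0.930). The responses of the genotypes differed by -1.23 ± 0.80 on day 1 (edgeR adjusted p = 0.845) and by -1.37 ± 0.82 on day 3 (edgeR adjusted p = 1.00), Cpa3Cre/+ minus Cpa3+/+.

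Between genotypes, Cpa3Cre/+ over Cpa3+/+, the log2 fold change was 1.49 ± 0.53 in naive mice (edgeR adjusted p = 0.900; 0.77 to 1.99 over the alternatives tried, including without Cpa3Cre/+ naive replicate 1) and 1.32 ± 0.62 in immunized mice (edgeR adjusted p = 1.00). It was 0.09 ± 0.53 on day 1 and -0.05 ± 0.57 on day 3, both smaller than their errors and of unstable sign when single libraries were left out. Averaged over these 4 states it was 0.71 ± 0.30 (edgeR adjusted p = 0.998). DESeq2 called 0% of all genes between genotypes in naive and immunized mice, 0.0174% on day 1, 0.0406% on day 3 and 0.0348% in the average. Immunized over naive was -0.93 ± 0.58 in Cpa3Cre/+ (edgeR adjusted p = 0.484) and -0.76 ± 0.59 in Cpa3+/+ (edgeR adjusted p = 1.00), where DESeq2 called 0.453% of all genes in Cpa3Cre/+ and 0.0232% in Cpa3+/+. The filter on low counts decided these calls: with no filter, 5 of the 12 contrasts passed, namely the naive and the average genotype contrast and the 3 Cpa3+/+ challenge days.

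The other sialyltransferase genes were set beside it. Of 20 family genes on the list, 19 were in the table and 14 passed the filter, St3gal4 among them. None of the other 13 had all 3 Cpa3Cre/+ day 5 libraries above the other 20, which 0.627% of all genes did, so a count of 0 in a list this short says nothing particular about the family. St3gal6 came close, with its lowest Cpa3Cre/+ day 5 library at 123.9 CPM and the highest of the other 20, Cpa3Cre/+ immunized replicate 1, at 124.6 CPM. None was called by edgeR for Cpa3Cre/+ over Cpa3+/+ on day 5, where 0% of all genes were called and 1596 had an unadjusted p under 0.05. Their median log2 fold change was -0.49 with 2 of 13 positive (-0.32 and 4 positive without replicate 3), against a median of -0.03 over all genes. For Cpa3Cre/+ day 5 over immunized, none of the 13 was called, against 0.0348% of all genes, and their median was -0.36 with 3 positive (-0.08 and 5 positive without replicate 3), against 0.01 over all genes. From the immunized state to challenge day 1, St3gal2, St6galnac4 and St8sia4 separated in opposite ways in the genotypes, higher in Cpa3Cre/+ and lower in Cpa3+/+, while 4.36% of all genes did so in that direction and 9.21% in either. Over the 20 libraries outside Cpa3Cre/+ day 5, the correlation of the 13 genes with St3gal4 ran from -0.51 to 0.25 with a median of -0.05.

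St3gal6, whose enzyme also caps N-acetyllactosamine ends, was the most abundant member per length in all of these 20 libraries. On day 5 it had 135, 124 and 165 CPM in Cpa3Cre/+ and 104 and 102 CPM in Cpa3+/+, and its fitted difference was 0.45 ± 0.22 on the log2 scale (adjusted p = 0.524, edgeR). All 3 Cpa3Cre/+ libraries lay above both Cpa3+/+ libraries, and replicate 3 was the highest. The share of all genes that did so on day 5 was not counted. St3gal1, which acts on mucin-type O-glycan cores, had 20.99, 15.6 and 6.12 CPM in Cpa3Cre/+ and 28.2 and 20.97 CPM in Cpa3+/+ on day 5 (-0.79 ± 0.46). St8sia4, a polysialyltransferase, had 10.8, 9.29 and 2.64 CPM in Cpa3Cre/+ and 8.93 and 9.82 CPM in Cpa3+/+. In both of these genes replicate 3 stood well below replicates 1 and 2, and without it the Cpa3Cre/+ libraries were close to or overlapped those of Cpa3+/+. St6gal1, which makes the alpha-2,6 linkage on N-glycans, had 10.9, 14.0 and 9.60 CPM in Cpa3Cre/+ and 11.7 and 21.6 CPM in Cpa3+/+ (-0.53 ± 0.50). St3gal2, which like ST3Gal1 acts on O-glycan cores and glycolipids, had 5.21, 2.94 and 2.54 CPM in Cpa3Cre/+ and 4.19 and 5.88 CPM in Cpa3+/+. The genotypes overlapped in both, and also in St3gal3, with 7.96, 6.04 and 8.38 CPM in Cpa3Cre/+ and 6.04 and 8.88 CPM in Cpa3+/+. The ganglioside enzyme St6galnac6 had 7.96, 5.56 and 7.53 CPM in Cpa3Cre/+ and 5.31 and 9.22 CPM in Cpa3+/+, again with overlap.

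Summed over the family, transcripts reached 81.7, 80.0 and 60.9 RPKM in Cpa3Cre/+ day 5 and 28.1 to 42.9 RPKM (median 35.5) in the other 20 libraries. St3gal4 made up 56.6, 60.7 and 41.1% of that sum in Cpa3Cre/+ day 5 and 4.52 to 26.3% (median 13.4%) elsewhere. It was the most abundant member in replicates 1 and 2 of Cpa3Cre/+ day 5 and came after St3gal6 in replicate 3. These sums contain St3gal4 itself and are a description.

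**Figure D2:**
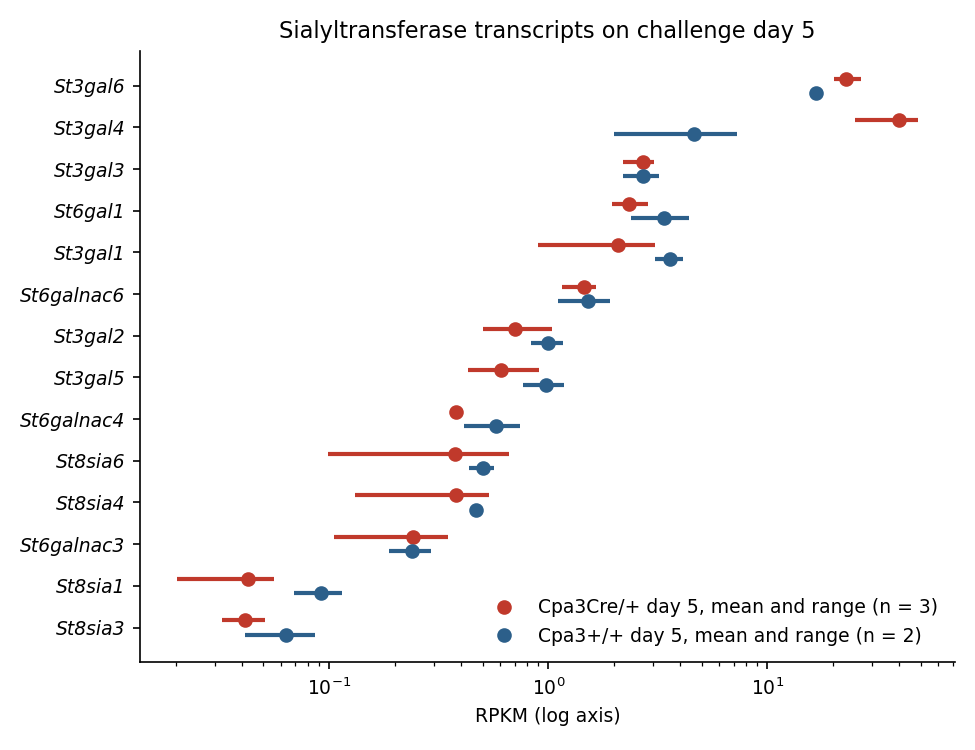
Sialyltransferase genes that passed the filter, in RPKM on a log axis, for Cpa3Cre/+ day 5 (red, above) and Cpa3+/+ day 5 (blue, below); points are means and lines span the libraries. The lines separate widely for St3gal4, with means of 40.0 and 4.62 RPKM, while most other members overlap or lie close.

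Genes that supply, remove or read sialic acid were counted as lists. Of 14 genes of sialic acid synthesis and removal, 9 were positive for Cpa3Cre/+ over Cpa3+/+ on day 5, with a median log2 fold change of 0.11 (6 positive and -0.06 without replicate 3). Those with the smallest p were the lysosomal sialidase Neu1 (0.79 ± 0.36, edgeR adjusted p = 0.524) and its protective partner Ctsa (0.57 ± 0.29). Of 34 enzymes that build the galactose-ended chains, 18 were positive, with a median of 0.03, and without replicate 3 the median was also 0.03; B3gnt7 (1.22 ± 0.39), which extends keratan sulfate chains, and B4galt5 (1.06 ± 0.37), which makes lactosylceramide, had the smallest p. Of 16 selectins, siglecs and selectin ligands, 4 were positive, with a median of -0.33 (7 positive and -0.07 without replicate 3). The selectin gene Selp was at 0.70 ± 0.50. None of the members of these 3 lists was called. An interferon response list had 11 of 14 positive with a median of 1.39 (0.86 without replicate 3), led by Igtp (1.53 ± 0.46) and Ifit3 (1.59 ± 0.46), and none was called.

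Genes tied to the epithelial response to the type 2 cytokines IL-4 and IL-13 were followed in a list of 24 genes, of which 20 passed the filter. The list also holds the cytokine genes Il33 and Tslp and the receptor genes Il4ra and Il13ra1. Its counts thus do not measure that response alone. Retnlb, the goblet cell resistin-like molecule of type 2 responses, and Sprr2a1, a small proline-rich protein, passed it only through the Cpa3Cre/+ day 5 libraries. Both are left out of the fold change counts that follow in this paragraph. Sprr2a1 had 0.744, 1.67 and 0.659 CPM in Cpa3Cre/+ day 5 and at most 0.218 CPM elsewhere, close to the floor of the counts. Of the remaining 18 members, 16 were positive for Cpa3Cre/+ over Cpa3+/+ on day 5, with a median of 1.15 (1.51 without replicate 3), against -0.03 over all genes, and none was called by edgeR. Socs1, a feedback inhibitor of cytokine receptors, had 2.38, 1.27 and 2.07 CPM in Cpa3Cre/+ day 5, against 0.402 and 0.668 CPM in Cpa3+/+ day 5 (1.80 ± 0.51, edgeR adjusted p = 0.524), and it reached 3.41 CPM among the other libraries. For Cpa3Cre/+ day 5 over immunized, 13 of the 18 were positive with a median of 2.73 (3.21 without replicate 3), and none was called.

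Markers of cell types were counted in the same day 5 contrast between genotypes. Over all 17236 genes tested, 47.7% were positive, the median was -0.03 and 1596 had an unadjusted p under 0.05. Of 19 absorptive enterocyte markers 18 were positive, with a median log2 fold change of 0.75 (0.49 without replicate 3), and 6 had an unadjusted p under 0.05. Villus tip markers had 8 of 10 positive with a median of 0.90 (0.83 without replicate 3), and tuft cell markers 9 of 9 with a median of 0.49 (0.47 without replicate 3). Markers of stem cells and proliferation had 0 of 12 positive with a median of -0.64 (-0.54 without replicate 3), and 6 had an unadjusted p under 0.05. Paneth cell markers had 1 of 10 positive with a median of -0.83 (-0.56 without replicate 3). Lists from outside the epithelium were one-sided too. Smooth muscle had 0 of 8 positive (median -0.51, -0.45 without replicate 3) and enteric neurons and glia 0 of 10 (-0.38, -0.45 without replicate 3). Macrophages and dendritic cells had 0 of 11 (-0.40, -0.11 without replicate 3) and T cells 8 of 10 (0.73, 0.59 without replicate 3). No member was called by edgeR. Their part in the levels of St3gal4 and of the type 2 list was not tested.

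DESeq2 called St3gal4 higher in Cpa3Cre/+ day 5, both over Cpa3+/+ day 5 and over Cpa3Cre/+ immunized. The gene was chosen for its level in that group, so these calls are a description. It is left out of the counts that follow. Of the other list members DESeq2 called 3 on day 5 between genotypes, where it called 0.087% of all genes: the mast cell genes Cpa3 and Mcpt9 and the cyclin gene Ccna2, all lower in Cpa3Cre/+. For Cpa3Cre/+ day 5 over immunized it called 8 list members, all higher on day 5, and 1.03% of all genes. They were Gsdmc2, Gsdmc3 and Gsdmc4, the mucosal pentraxin genes Mptx1 and Mptx2, and the mast cell protease genes Mcpt1, Mcpt2 and Mcpt4. Mcpt1 had 44.6, 67.9 and 53.8 CPM in Cpa3Cre/+ day 5, against 4.37 and 5.19 CPM in Cpa3Cre/+ immunized mice, and 59.6 and 397 CPM in Cpa3+/+ day 5. Mcpt2 had 19.9, 31.1 and 19.4 CPM in Cpa3Cre/+ day 5, against 1.09 and 1.76 CPM in Cpa3Cre/+ immunized mice, and 24.0 and 137 CPM in Cpa3+/+ day 5. Within the genotype labelled mast cell-deficient, 10 of 11 mast cell markers were positive for day 5 over immunized; most were under 1 CPM in the immunized libraries, near the floor, and their median is not given. Between genotypes on day 5, 0 of the 11 were positive, with a median of -1.87. The part of these genes in the level of St3gal4 was not tested.

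**Figure D3:**
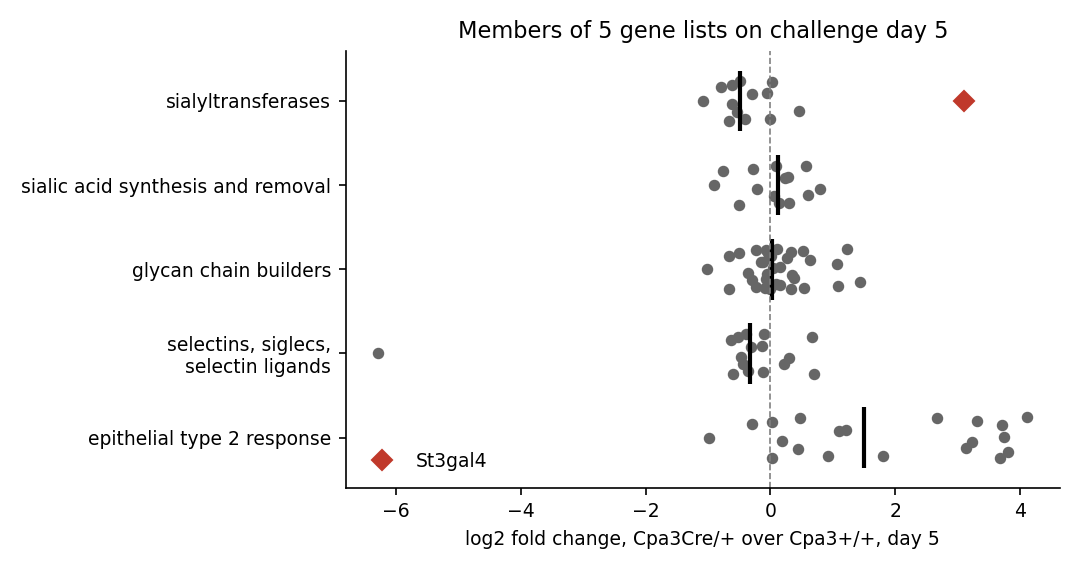
Log2 fold change of each member of 5 gene lists, Cpa3Cre/+ over Cpa3+/+ on day 5; grey points are genes, black bars list medians, and the red diamond is St3gal4, which is not in the list's median; Retnlb and Sprr2a1 are drawn in the type 2 list. St3gal4, at 3.10, lies outside the range of the other sialyltransferases and within the range of the type 2 list.

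Which other genes shared the pattern of St3gal4 was asked first on day 5. Of 17236 genes, 108 (0.627%) had all 3 Cpa3Cre/+ day 5 libraries above the other 20; Sprr2a1 alone among them passed the filter only through those 3 libraries. The same count was 4 genes (0.0232%) for the 3 Cpa3+/+ naive libraries and 11 genes (0.0638%) for the 3 Cpa3+/+ day 1 libraries. For Cpa3Cre/+ day 5 it was 57 genes on counts over totals and 267 genes without replicate 3. Measured by the gap between the lowest of the 3 libraries and the highest of the 20, on log2(CPM + 1), St3gal4 ranked 2 of all genes.

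The gene with the widest gap was AA467197, the mouse counterpart of human C15orf48, a small protein of the mitochondrial respiratory chain. It had 142, 123 and 112 CPM in Cpa3Cre/+ day 5, against 2.98 and 24.2 CPM in Cpa3+/+ day 5 and at most 30.9 CPM in any of the 20. Sprr2a3, a small proline-rich protein made by intestinal epithelium, had 182, 304 and 227 CPM in Cpa3Cre/+ day 5, against 3.06 and 50.8 CPM in Cpa3+/+ day 5 and at most 91.2 CPM elsewhere. The 3 Cpa3Cre/+ day 5 libraries were alike in AA467197 and spread more widely in Sprr2a3, from 182 to 304 CPM. In both genes the 2 Cpa3+/+ day 5 libraries were far apart and stood in the same order as for St3gal4.

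Cd55, a membrane inhibitor of complement, had 180, 196 and 154 CPM in Cpa3Cre/+ day 5, against 44.2 and 48.1 CPM in Cpa3+/+ day 5 and at most 92.4 CPM elsewhere. Gpx2, the glutathione peroxidase of gut epithelium, had 866, 731 and 1038 CPM in Cpa3Cre/+ day 5, against 245 and 410 CPM in Cpa3+/+ day 5 and at most 526 CPM elsewhere. Its pseudogene Gpx2-ps1, which can share reads with it, had 11.8, 17 and 10.2 CPM in Cpa3Cre/+ day 5 and at most 5.84 CPM elsewhere. Me1, the cytosolic malic enzyme that makes NADPH, had 172, 234 and 199 CPM in Cpa3Cre/+ day 5, against 58.0 and 92.6 CPM in Cpa3+/+ day 5.

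The remaining genes of the first 10 had narrower gaps. Car4, a membrane carbonic anhydrase, had 495, 443 and 470 CPM in Cpa3Cre/+ day 5, against 117 and 253 CPM in Cpa3+/+ day 5. The glycerol and water channel gene Aqp7 had 79.0, 84.5 and 95.4 CPM in Cpa3Cre/+ day 5, against 16.6 and 34.7 CPM in Cpa3+/+ day 5. Stn1, of a telomere-binding complex, had 17.9, 17.2 and 16.5 CPM in Cpa3Cre/+ day 5, against 10.2 and 10.6 CPM in Cpa3+/+ day 5, and on counts over totals its libraries overlapped the rest. Tnfrsf23, a mouse decoy receptor for the death ligand TRAIL, had 11.6, 12.5 and 12.4 CPM in Cpa3Cre/+ day 5, against 3.38 and 6.35 CPM in Cpa3+/+ day 5.

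Likeness outside that group was measured over the 20 other libraries, as Pearson's r of log2(CPM + 1). The day 5 pattern was itself set against the highest of these 20 libraries. Thus r in genes of that pattern is not independent of how they were picked. The libraries share their scaling and differ in depth, state and sex, so r is a description over points that are not independent of each other. Over all other genes r had a median of 0.02, with 90% of genes between -0.45 and 0.44. Of the 107 genes that shared the day 5 pattern, 94 had a positive r (87.9%, against 52.6% of all genes), and their median was 0.26. Among the named genes of the day 5 pattern, r was 0.72 for Sprr2a3, 0.69 for AA467197, 0.57 for Cd55, 0.56 for Me1, 0.54 for Gpx2 and 0.54 for Car4. It was 0.42 for Aqp7, 0.19 for Tnfrsf23 and 0.11 for Stn1.

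Among the 8 highest values of r were those of Znrd1 (0.78), a subunit of RNA polymerase I, Gsdmc4 (0.77), Pla2g4c (0.76), Gmnn (0.76), the inhibitor of replication licensing geminin, Prkrip1 (0.74), Gsdmc3 (0.72) and Sprr2a3. Gsdmc3 and Gsdmc4 encode gasdermin C proteins, which form membrane pores and are known to be induced in mouse gut epithelium by type 2 cytokines; the copies are near-identical and can share reads. Pla2g4c encodes a cytosolic phospholipase. The 4 lowest values belonged to Fam172a (-0.71), Lcorl (-0.71), Fam208b (-0.68) and the DNA repair gene Rad50 (-0.68). Leaving out the libraries farthest from the median of St3gal4, Cpa3+/+ day 1 replicate 3 and Cpa3+/+ day 3 replicate 2, gave 0.87 for Znrd1, 0.71 for Gsdmc4, 0.70 for Pla2g4c, 0.64 for AA467197 and 0.66 for Sprr2a3.

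The comparison was repeated with group means removed, on deviations of log2(CPM + 1) from the group means over the same 20 libraries. There r was 0.82 for Gsdmc4, 0.81 for Gsdmc3, 0.78 for Pla2g4c, 0.74 for Gsdmc2 and 0.72 for Acss1, a mitochondrial enzyme that activates acetate. It was 0.73 for Me1, 0.72 for Sprr2a3 and 0.70 for AA467197. Gmnn, Prkrip1 and Znrd1 were lower, at 0.46, 0.44 and 0.41, while all genes had a median of -0.04, with 90% between -0.46 and 0.43. With the 3 Cpa3Cre/+ day 5 libraries included, the highest r belonged to Gsdmc4 (0.84), Gsdmc3 (0.84), Pla2g4c (0.80), Gsdmc2 (0.77) and Acss1 (0.75). Gmnn, Prkrip1 and Znrd1 then stood at 0.16, 0.08 and -0.07. In Cpa3Cre/+ day 5 replicate 3 these 3 genes were at 151, 159 and 166% of the mean of replicates 1 and 2, where St3gal4 was at 52.8%. Counted another way, the library of a group with the most St3gal4 was also the library with the most Gsdmc3, Gsdmc4 or Me1 in 10 of 10 groups, the most Gsdmc2, Sprr2a3 or Cd55 in 9, and the most Pla2g4c, AA467197, Aqp7 or Acss1 in 8. Over all genes at 5 CPM or more the median was 5 groups, and 2.20% of genes reached 8.

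**Figure D4:**
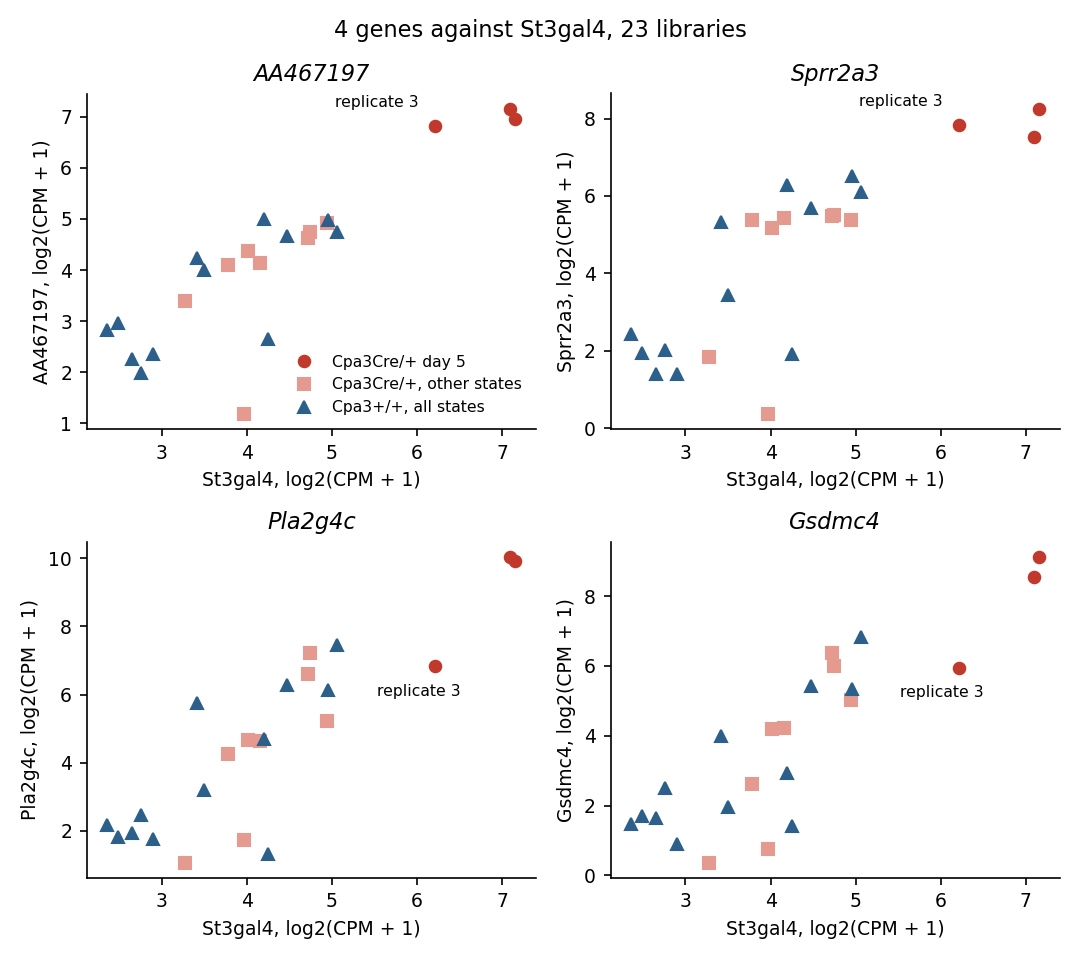
Log2(CPM + 1) of 4 genes (vertical) against that of St3gal4 (horizontal) in 23 libraries; red circles are Cpa3Cre/+ day 5, pale squares other Cpa3Cre/+ libraries and blue triangles Cpa3+/+ libraries. All 4 genes climb with St3gal4 over the 20 other libraries (r of 0.69 to 0.77), and Cpa3Cre/+ day 5 replicate 3 keeps a high level of AA467197 and Sprr2a3 but not of Pla2g4c and Gsdmc4.

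The type 2 list was compared with St3gal4 in the same ways. Its 20 tested members had a median r of 0.34 over the 20 libraries, with 16 positive. Within groups over the same libraries the median was 0.36, with 17 positive (0.41 over all 23). These members include Retnlb (r = 0.64 over the 20 libraries) and Sprr2a1, which passed the filter only through Cpa3Cre/+ day 5. Medians without them are not given. The mean of the list on log2(CPM + 1) had r = 0.64 and Spearman's rho = 0.71 with St3gal4 over the 20 libraries, and r = 0.53 without the 2 farthest libraries. Of the 18 members that passed the filter without Cpa3Cre/+ day 5, Sprr2a3 and Duoxa2 had all 3 Cpa3Cre/+ day 5 libraries above the other 20 (0.627% of all genes did).

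In Cpa3Cre/+ day 5 replicate 3 the gasdermin C genes and Pla2g4c were lower, as St3gal4 was, but fell further than it did. Sprr2a3, another member that followed St3gal4 closely (r = 0.72 over the 20 libraries), did not, at 182, 304 and 227 CPM. Pla2g4c had 1045, 969 and 112 CPM in the 3 Cpa3Cre/+ day 5 libraries, against 4.51 and 77.3 CPM in Cpa3+/+ day 5. Gsdmc4 had 376, 552 and 60.8 CPM in Cpa3Cre/+ day 5, against 4.67 and 42.3 CPM in Cpa3+/+ day 5. In replicates 1 and 2 both genes stood above every other library, and in replicate 3 they lay inside the range of the other 20, which reached 175 CPM for Pla2g4c and 113 CPM for Gsdmc4.

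Replicate 3 held 52.8% of the mean St3gal4 level of replicates 1 and 2. It held 11.2% for Pla2g4c, 13.4% for Gsdmc2, 12.1% for Gsdmc3, 13.1% for Gsdmc4 and 6.0% for Retnlb, which had 5.66, 6.91 and 0.377 CPM. It held 84.6% for AA467197, 93.6% for Sprr2a3, 82.0% for Cd55, 98.1% for Me1 and 130% for Gpx2. Over 10934 genes at 5 CPM or more in Cpa3Cre/+ day 5 the median was 106%, with 90% of genes between 42.4 and 250%. By this measure St3gal4 stood between the gasdermin genes and the genes whose replicate 3 held 82.0 to 130% of that mean. Spread between replicates 1 and 2 does not enter it.

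**Figure D5:**
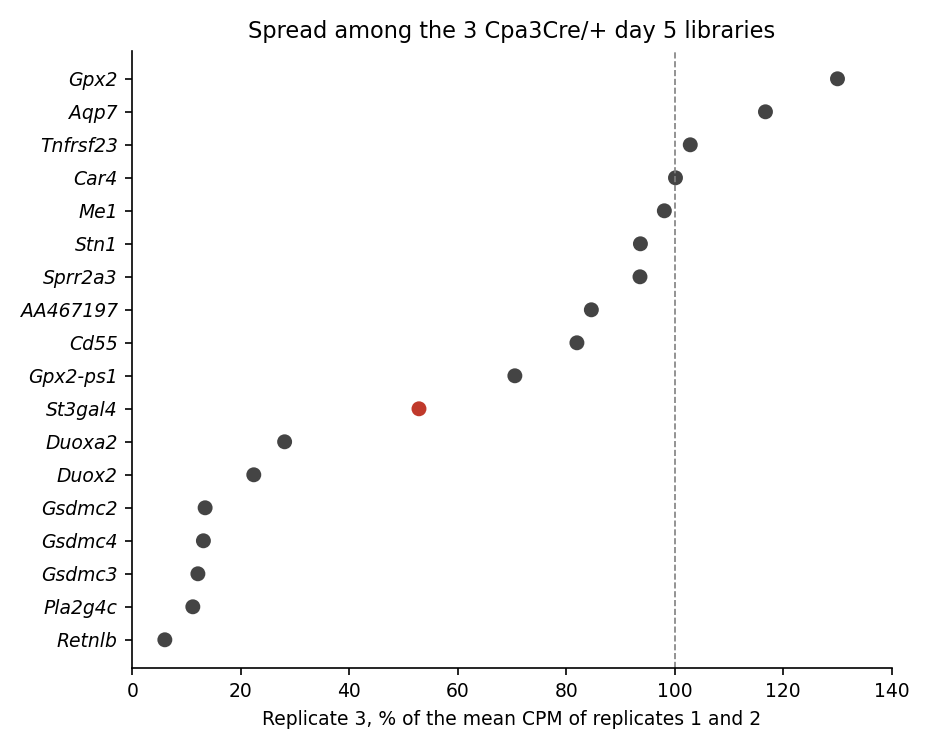
Level in Cpa3Cre/+ day 5 replicate 3 as a percentage of the mean CPM of replicates 1 and 2, for St3gal4 (red) and genes named in the text (black); the dashed line marks equal levels. St3gal4, at 52.8%, falls between genes near equality and the gasdermin genes, Pla2g4c and Retnlb at 6.0 to 13.4%.

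Along chromosome 9, neighbours were the nearest genes on each side that passed the filter, other than predicted ones. They had log2 fold changes of -0.55 to 0.13 for Cpa3Cre/+ over Cpa3+/+ on day 5. Dcps, an mRNA cap-scavenging enzyme on the same strand, had 22.6, 23.4 and 21.9 CPM in Cpa3Cre/+ day 5, against 14.7 and 26.5 CPM in Cpa3+/+ day 5 (log2 fold change 0.13 ± 0.25). Tirap, an adaptor of Toll-like receptors, had a log2 fold change of 0.13, and Srpr, of the signal recognition particle receptor, 0.02. On the other side the transcription factor genes Ets1 and Fli1 had -0.43 and -0.55 and the potassium channel gene Kcnj5 -0.16. These genes lie far from St3gal4, at positions 32314707 to 32757820, so no gene close to it on that side was covered. The non-coding gene 4930581F22Rik, taken after its values were seen, lies on the plus strand at positions 35116728 to 35130922 and overlaps St3gal4 by 2541 bases, which include the promoter window shown above. It had 10.7, 12.9 and 3.67 CPM in Cpa3Cre/+ day 5, against 2.09 and 4.27 CPM in Cpa3+/+ day 5, and r = 0.69 with St3gal4 over the 20 libraries. The strand setting of the counting was not given in the sources used here, so reads of these 2 genes may not be told apart.

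Markers of jejunal cell types were summed in each library to see what moved with St3gal4. Of 21 lists, 20 had Cpa3Cre/+ day 5 sums inside or overlapping the range of the other 20 libraries. Absorptive enterocyte genes, which define the labelled tissue, were abundant throughout, at 47112 to 89379 CPM in Cpa3Cre/+ day 5 and 12950 to 81058 CPM elsewhere. Colon epithelium genes alone lay above all others, at 721 to 833 CPM in Cpa3Cre/+ day 5 and 282 to 551 CPM elsewhere. Car4, itself a gene of the day 5 pattern, made up 56.4 to 68.6% of that sum, the 7 other genes summed to 227 to 363 CPM in Cpa3Cre/+ day 5 and 144 to 452 CPM elsewhere, and the colon marker Car1 was at 0 in Cpa3Cre/+ day 5. Neutrophil genes, of a cell type in which ST3Gal4 is known to act, summed to 3.39 to 11.1 CPM in Cpa3Cre/+ day 5 and 2.01 to 24.8 CPM elsewhere, with Ly6g and Camp at 0 in Cpa3Cre/+ day 5. Against Cpa3+/+ day 5 alone, the sums of villus tip, absorptive enterocyte, colon, proximal small intestine and T cell genes were higher in every Cpa3Cre/+ day 5 library. Those of Paneth cell, stem cell and mast cell genes were lower. The share of all genes that separated the day 5 genotypes in this way was not counted, so these lists cannot be said to stand out. In the naive state 7.95% of genes were higher in every Cpa3Cre/+ library. Villus tip genes summed to 10429 to 36198 CPM in Cpa3Cre/+ and 2955 to 6995 CPM in Cpa3+/+, stem cell and proliferation genes to 1117 to 2121 CPM in Cpa3Cre/+ and 2320 to 2557 CPM in Cpa3+/+, and Paneth cell genes to 5705 to 16813 CPM in Cpa3Cre/+ and 22718 to 25376 CPM in Cpa3+/+. Tuft cell genes summed to 99.2 to 122 CPM in Cpa3Cre/+ day 5 and 31.7 to 121 CPM elsewhere. Over the 20 libraries, r with St3gal4 was 0.42 for the mean of the tuft cell list, 0.34 for neutrophils, 0.04 for absorptive enterocytes, 0.37 for log10 of the total count and -0.18 for the scaling factor. The part of these in the level of St3gal4 was not tested.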

How the data were processed

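RNA was sequenced from whole jejunum with fat and Peyer's patches removed, from stranded Illumina libraries, per the labels' protocols. The submitters' processing notes name STAR, featureCounts of Subread 1.5.1 and the builds mm10 and GRCm38. The authors deposited raw read counts for each Ensembl gene. Neither the strand setting nor the STAR version nor the authors' annotation is given in the sources used here. Symbols, positions and exon lengths came from GENCODE vM21, which held 55227 of the 55487 genes. Genes without a record held 0.00137% of reads and stayed in the totals.

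Groups followed genotype and state in the labels. Separate animals are not stated for libraries of the same group and sex, whose spread, and the p-values built on it, may thus be technical. Genes with low counts were left out by filterByExpr on the groups, and TMM scaled the libraries. One robust quasi-likelihood model in edgeR 4.0.16 (R 4.3.3) held 10 group means and sex, leaving 12 residual degrees of freedom; biological variation between libraries was estimated at 28.6%. Its standard errors are approximate, taken from the log2 fold change and its F statistic. Tests were two-sided with Benjamini-Hochberg adjustment over all genes. On simulated data for the day 5 genotype contrast over 17236 genes, 92% of genes changed by 2 on the log2 scale were recovered. Of those changed by 3, 96% were recovered, and false calls numbered 11. On the real counts edgeR called 0 genes in this contrast, so it did not call St3gal4, at a log2 fold change of 3.10. The simulated shares thus cannot be taken as the power of the fit in these libraries. An absence of calls is not evidence that a gene did not change.

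Correlations used log2(CPM + 1) and no p, since genes were ranked by them. Named genes were the target and its family, the 10 widest gaps, the 8 highest and 4 lowest r over the 20 libraries, the 5 highest within groups, up to 2 members per list with the smallest p, and 3 neighbours on each side, without predicted genes; other named genes were chosen after their values were seen. A gene that this rule would name is not reported here. The gene, its comparisons and the 27 lists (21 of them cell type markers) were chosen with earlier results of these data known. Total counts had a median of 13809248 per library. The exact binomial 95% interval for counting error alone, in CPM of the total, ran from 4.00 to 8.25 at the lowest count (32 reads, Cpa3+/+ naive replicate 1) and from 138 to 152 in Cpa3Cre/+ day 5 replicate 2. Promoter windows from RefSeq matched 13 of 17 genes asked for. Alternatives were DESeq2 1.42.0, DESeq2 size factors, no filter, no sex covariate, female libraries only, a replicate block, another pseudocount, rank correlation, counts over totals and leaving out each library.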

Additional observations from a re-analysis of the deposited data

Results flagged for a closer look

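Among the sialyltransferases, 3 genes moved opposite ways in the 2 genotypes from the immunized state to challenge day 1, with no overlap between the libraries of the 2 states in either genotype. Such opposite separations were common in these groups of 2 and 3 libraries: 9.21% of all genes tested showed one, and 4.36% in the direction of these 3 genes. St3gal2 was higher on day 1 than in immunized mice by 0.500 CPM in Cpa3Cre/+, with means of 5.38 CPM on day 1 and 4.88 CPM in immunized mice, and in Cpa3+/+ the means were 4.08 CPM on day 1 and 6.03 CPM in immunized mice. Its separation in Cpa3Cre/+ was slight, with the lowest day 1 library at 5.026 CPM and the highest immunized library at 5.023 CPM. St6galnac4 was higher on day 1 by 1.44 CPM in Cpa3Cre/+, with means of 5.32 CPM on day 1 and 3.88 CPM in immunized mice, and in Cpa3+/+ the means were 3.22 CPM on day 1 and 4.95 CPM in immunized mice. St8sia4 was higher on day 1 by 2.35 CPM in Cpa3Cre/+, with means of 10.6 CPM on day 1 and 8.24 CPM in immunized mice, and in Cpa3+/+ the means were 6.47 CPM on day 1 and 13 CPM in immunized mice. The fitted difference between the genotypes' responses is not given for these genes. St3gal4 itself was higher on day 1 than in immunized mice in both genotypes.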

How the results depend on the processing

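For St3gal4, the 3 Cpa3Cre/+ day 5 libraries lay above the other 20 under each scaling and with each library left out. Its mean there was 104 to 139 CPM when a library was left out. The log2 fold change over Cpa3+/+ on day 5 was 2.45 to 4.30 when single libraries were left out, both ends coming from leaving out a Cpa3+/+ day 5 library. With no filter on low counts, 5 of 12 contrasts passed in place of 0, and list members called were 45 for Cpa3Cre/+ over Cpa3+/+ on day 5 and 37 for Cpa3Cre/+ day 5 over immunized, in place of 0. With DESeq2 these counts were 3 and 8, and St3gal4 is left out of all of them. Leaving out single libraries gave 0 to 10 list members for Cpa3Cre/+ day 5 over immunized, with 10 without Cpa3Cre/+ day 5 replicate 3 and 1 without either Cpa3+/+ day 5 library. Genes called between genotypes on day 5 numbered 466 with no filter and 15 with DESeq2, and for Cpa3Cre/+ day 5 over immunized 341 with no filter, 177 with DESeq2 and 327 without Cpa3Cre/+ day 5 replicate 3. The cause was not tested. Genes with all 3 Cpa3Cre/+ day 5 libraries above the other 20 numbered 57 on counts over totals, a setting added after the data were seen, and 108 to 267 with single libraries left out (210, 163 and 267 without Cpa3Cre/+ day 5 replicates 1, 2 and 3, where fewer libraries must lie above the rest). On counts over totals the log2 gap of Stn1 was -0.091.

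With single libraries left out, the log2 genotype difference of St3gal4 ran from -0.32 to 0.61 on day 1 and from -0.82 to 0.39 on day 3. It was below 0 on day 1 without Cpa3+/+ day 1 replicate 1, Cpa3Cre/+ day 1 replicate 1 or either Cpa3Cre/+ day 3 library. It was above 0 on day 3 in 5 such cases, with female libraries only (0.33) and with the replicate number as a block (0.14). Libraries of the same replicate number were not steadily alike: 5 of 45 pairs of groups had every correlation over 0.1, in a range of -0.30 to 0.54. Most groups held 2 libraries, so this check cannot exclude a pairing or a shared batch. Under the block no gene was called for Cpa3Cre/+ day 5 over immunized, in place of 6. Over the settings tried, r over the 20 libraries was 0.71 to 0.82 for Gsdmc4, 0.70 to 0.84 for Pla2g4c, 0.64 to 0.83 for AA467197 and 0.66 to 0.81 for Sprr2a3. The median r of the type 2 list within groups, with Retnlb and Sprr2a1 included, was 0.36 without the Cpa3Cre/+ day 5 group. That setting was added after the data were seen. Depth limits the lowest values, where 32 reads stand behind a library's level.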
